A study of Capra hircus with 3 samples.

Results

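The Toll-like receptors were examined on 3 arrays of goat skin, each of which compared 1 goat under a short photoperiod with 1 goat under the natural photoperiod. The family was taken as every probe that was not a control and whose gene name on the array starts with TLR and a digit, or whose description names a toll-like receptor. This rule gave 10 genes, TLR1 to TLR10, of 14314 different names of genes or sequence records on the array. They are measured by 19 of its 15008 probes, on 23 of its 15208 spots. The array carries sheep sequences, and goat RNA was hybridised to it. All 10 symbols are also in the gene table of the goat assembly ARS1.2.

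Skin was taken in July from 6 female Arbas Cashmere goats of 2 years, a breed kept for the fine undercoat that grows from its secondary hair follicles. For the 3 goats of the short photoperiod, time outdoors with feed and water was limited to the hours between 9:30 and 16:30. Outside these hours light was held near 0.1 lux in a closed shed, at 1 °C below the outdoor temperature. The other 3 goats stayed on pasture in natural daylight and served as controls. RNA of the short photoperiod was always labelled with Cy5 and RNA of the natural photoperiod with Cy3, and both goats of an array came from the same parent. No array had the dyes exchanged, so a dye effect of a probe cannot be told apart from the effect of the photoperiod, and shed, darkness and temperature cannot be told apart from each other. Median spot signals were 4587 to 7120 in Cy5 and 2688 to 3911 in Cy3 over local backgrounds of 38.5 to 42 and 23.5 to 25, and no spot was saturated.

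Toll-like receptors are membrane proteins of the innate immune system that bind molecules typical of microbes and pass the signal on through adaptors, chiefly MyD88, to NF-kB and to interferon regulatory factors. TLR1, TLR2, TLR4, TLR5, TLR6 and TLR10 sit mainly at the cell surface, where TLR2 pairs with TLR1 or TLR6 to bind lipopeptides, TLR4 responds to lipopolysaccharide and TLR5 to flagellin. TLR3, TLR7, TLR8 and TLR9 bind nucleic acids inside endosomes. In skin they are found on keratinocytes as well as on macrophages, dendritic cells and other immune cells.

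Each probe is 60 bases long. The sequences below are those of the probes on which the results turn, written 5′ to 3′ as the arrays' files give them. In the pair for TLR7 the capitals mark the 20 bases that both probes hold. In the probe for TLR8 the capitals mark the bases that are identical to the TLR7 probe A_70_P049647 when they are laid side by side without gaps, 26 of 34 bases or 76.5%. The pairs for TLR4 and TLR9 are shown because the first gave opposite ratios and the second gave hardly any signal.
TLR7 A_70_P049646: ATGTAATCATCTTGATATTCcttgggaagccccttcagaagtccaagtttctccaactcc
TLR7 A_70_P049647: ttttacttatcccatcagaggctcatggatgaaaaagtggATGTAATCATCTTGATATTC
TLR8 A_70_P049622: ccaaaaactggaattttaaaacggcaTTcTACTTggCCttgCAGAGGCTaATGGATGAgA
TLR4 A_70_P049611: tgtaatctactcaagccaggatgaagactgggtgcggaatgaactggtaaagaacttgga
TLR4 A_70_P049612: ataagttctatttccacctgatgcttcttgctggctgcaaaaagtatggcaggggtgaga
TLR9 A_70_P051081: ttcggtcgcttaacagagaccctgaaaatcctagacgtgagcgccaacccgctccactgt
TLR9 A_70_P051082: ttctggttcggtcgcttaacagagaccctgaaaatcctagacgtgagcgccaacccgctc

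Probes of the same gene are not independent measurements. Of the 10 pairs of probes for 1 gene, 6 shared a run of at least 20 bases, and the probes of TLR8 shared 59 and those of TLR9 shared 54. The TLR4 probes shared no run longer than 5 bases. Between genes the longest shared run was 9 bases over 161 pairs, although a probe can also bind parts of another receptor's transcript that no probe covers, which was not tested.

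The first question was which receptors could be measured in this skin. Of the 19 probes, 17, for 9 genes, were well above background in both dyes on all 3 arrays by the scanner software's own test. TLR9, a receptor for unmethylated CpG DNA, was the exception. Its probe A_70_P051081 had 3.83 to 4.51 times the background in the natural photoperiod, where it was well above background on 3 arrays, and 3.24 to 4.06 times in the short photoperiod, where it was so on 1 array. Its probe A_70_P051082 was at 1.61 to 2.23 times the background and was not well above it in either dye on any array, so no fold is given for it.

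The strongest signals over background belonged to probes of TLR2, TLR3, TLR4 and TLR6. The TLR3 probe A_70_P049626 lay at 35.7 to 98.3 times the background over both dyes and the TLR2 probe A_70_P050916 at 44.9 to 71.4 times. TLR1, at 3.86 to 8.64 times, and TLR5, at 5.88 to 9.59 times, stayed under 10 times the background on every array in both dyes. These values say how well a probe was measured and do not order the genes, since the probes bind with different strength.

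**Figure D1:**
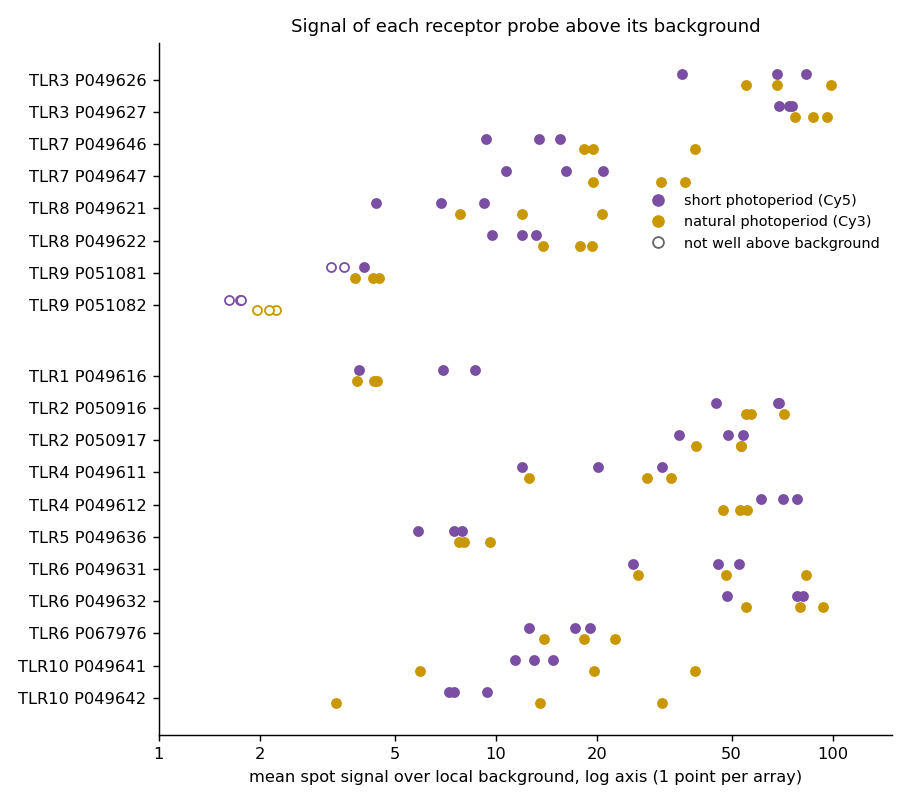
Mean signal of each receptor probe over its local background on a log axis, with 1 point per array, for the short photoperiod (Cy5, purple) and the natural photoperiod (Cy3, yellow). The open points, which were not well above background, belong to the TLR9 probes alone.

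No receptor passed the test for a change with photoperiod. In limma, with Benjamini-Hochberg adjustment over all 14977 tested probes, 0 of the 19 receptor probes had an adjusted p under 0.05, and 1 probe of the whole array did, which is 0.00668% of those tested. The adjusted p of the receptor probes ran from 0.155 to 0.892. Without adjustment 5 of the 19 probes had a p under 0.05, both probes of TLR7, both of TLR8 and 1 of TLR4, against 18.5% of all tested probes. By the rule of a mean log2 ratio of at least 1 or at most -1, a 2-fold change, 0 receptor probes were changed in either direction, against 0.841% of all tested probes. The paper, with its own normalization, lists TLR7 as more than 2-fold lower under the short photoperiod.

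The values of the receptors nevertheless lay mostly below 0, that is, lower in the short photoperiod. Over the 17 well measured probes the median of the mean log2 ratios was -0.25, and it was -0.27, -0.15 and -0.41 on arrays 1, 2 and 3, whereas the median over all 13464 probes that were as well measured was 0.00. The mean was below 0 for 15 of the 17 receptor probes and above 0 for 2. The log2 ratio was below 0 on all 3 arrays for 8 of them and above 0 on all 3 arrays for 1, against 22% and 21.6% of all probes measured on every array. Since the probes of a gene overlap, these 8 probes stand for 4 genes, TLR7 and TLR8 with both probes, TLR6 with all 3 and TLR4 with 1 of its 2. The direction of this median was the same under every setting tried.

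**Figure D2:**
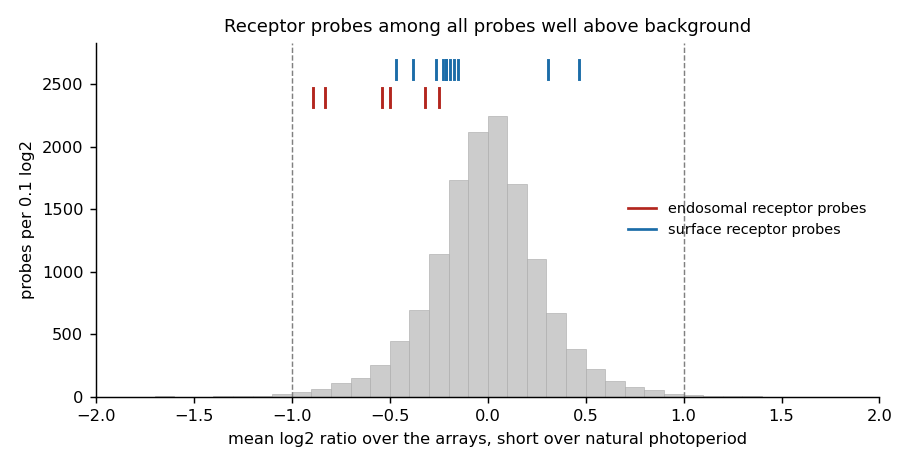
Distribution of the mean log2 ratio over the 13464 probes well above background (grey bars, in bins of 0.1) with the 17 well measured receptor probes as ticks, endosomal receptors in red and surface receptors in blue. The dashed lines mark a 2-fold change, and the TLR7 ticks at -0.89 and -0.83 are the receptor ticks nearest to a line.

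Among the endosomal receptors, TLR7, which binds single-stranded RNA, had the largest difference. On A_70_P049646 the log2 level was 8.5889, 8.6052 and 8.8358 in the 3 goats of the short photoperiod and 9.5157, 9.1847 and 9.9997 in their partners. Every goat of the short photoperiod was below every goat of the natural photoperiod. The log2 ratios were -0.93, -0.58 and -1.16, with a mean of -0.89 ± 0.29 (SD, n = 3), so that the level was 1.85 times higher under the natural photoperiod (limma, 95% interval of the log2 ratio -1.26 to -0.52, adjusted p = 0.155).

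On the other TLR7 probe, A_70_P049647, the log2 level was 8.81, 9.14 and 8.72 under the short photoperiod and 9.64, 9.72 and 9.80 under the natural photoperiod. The groups did not overlap on this probe either, and its mean log2 ratio was -0.83 ± 0.25 (SD, n = 3). Of the 13464 well measured probes, 98 had a lower mean than the first probe, 0.728% of them, and 131 a lower mean than the second. TLR7 is also among the genes that the study picked on these arrays, so its difference is not independent evidence. The gene reached a 2-fold mean on 1 probe in the log ratio of the scanner software and in the deposited value table, at -1.09 in both, and on both probes when arrays were centred on their median in place of loess, with an adjusted p of 0.0344 in limma. In a fit of the separate dye channels with the correlation within spots, limma also called both TLR7 probes, with adjusted p of 0.0463 and 0.0375 and an unchanged mean. These settings called 1880 and 164 probes of the whole array, and the fit of the channels as unpaired samples did not call TLR7, with adjusted p of 0.405 and 0.461 in limma.

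TLR8, likewise a receptor for single-stranded RNA, lay next to TLR7 in the goat gene table and shared the direction of its ratios. The log2 ratios on A_70_P049622 were -0.73, -0.36 and -0.53, with a mean of -0.54 ± 0.18 (SD, n = 3), and those on A_70_P049621 were -0.58, -0.37 and -0.55, with a mean of -0.50 ± 0.11. Both probes were lower in the goat of the short photoperiod in all 3 pairs, but only on A_70_P049622 were the goats of the groups fully apart, at 8.45 to 8.70 against 8.98 to 9.24. The adjusted p was 0.163 and 0.162 in limma.

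TLR3, which binds double-stranded RNA, differed between the pairs. On A_70_P049627 the log2 ratio was -0.39 and -0.58 on arrays 1 and 3 and 0.00 on array 2, and on A_70_P049626 it was -0.43, -0.45 and 0.14. The means of -0.32 and -0.25 had SDs of 0.30 and 0.33 (n = 3), and the levels of the groups overlapped on both probes. For TLR9 the probe with signal had log2 ratios of -0.16, -0.01 and 0.08.

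**Figure D3:**
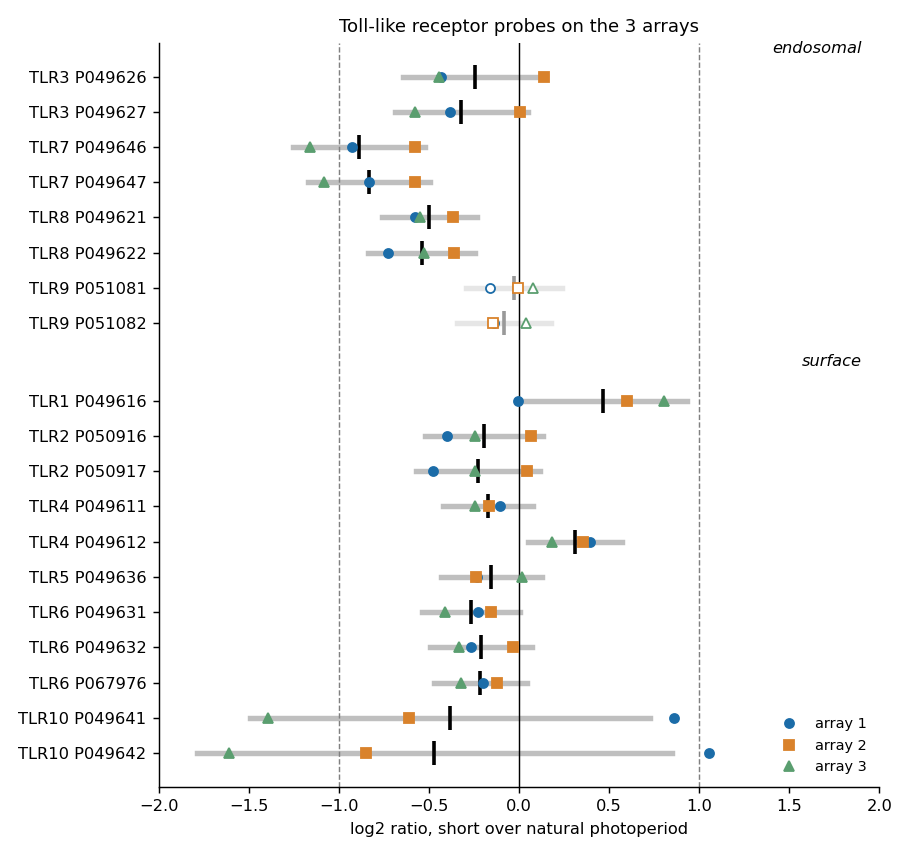
Log2 ratio of the short over the natural photoperiod for each receptor probe, with a point per array, a black tick for the mean and a grey bar for limma's 95% interval. Both probes of TLR7 and of TLR8 lie below 0 on every array, the TLR4 probes lie on opposite sides of 0, the TLR10 probes spread over both sides, and the open points of TLR9 were not well measured.

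The mean ratios of the surface receptors lay on both sides of 0. TLR2, the common partner of TLR1 and TLR6, had mean log2 ratios of -0.19 ± 0.24 and -0.23 ± 0.26 (SD, n = 3), and array 2 was slightly above 0 on both probes. Its levels on A_70_P050916 were 10.61, 10.76 and 10.64 under the short photoperiod and 11.01, 10.69 and 10.88 under the natural photoperiod, which overlapped. The first of these probes was printed on 5 spots of each array, whose log2 ratios had an SD of 0.04 to 0.06 within an array. The spread between the pairs of goats was thus wider than the spread between spots.

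TLR6 lies near TLR1 and TLR10 in the goat gene table, where TLR10 and TLR1 are neighbours and 1 locus separates TLR1 from TLR6, yet the signs of these genes differed. TLR6 was below 0 on all 3 arrays with all 3 probes, at means of -0.27 ± 0.13, -0.21 ± 0.16 and -0.22 ± 0.10 (SD, n = 3). The levels of the groups were fully apart on the probe A_70_P067976, at 8.90 to 9.04 against 9.10 to 9.23, and overlapped on the others. In total, 4 receptor probes had every goat of the short photoperiod below every goat of the natural photoperiod, 2 for TLR7 and 1 each for TLR8 and TLR6, against 7.16% of all probes measured on every array. The limma adjusted p of the TLR6 probes was 0.278 to 0.366.

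TLR1 was the receptor with the highest mean log2 ratio, 0.47 ± 0.42 (SD, n = 3), from -0.01 on array 1, 0.60 on array 2 and 0.80 on array 3. Its levels were 7.40, 7.76 and 7.82 under the short photoperiod and 7.41, 7.16 and 7.01 under the natural photoperiod. The groups overlapped through array 1, and the mean was 0.07 when arrays were centred on the median in place of loess. TLR5, the receptor for flagellin, had log2 ratios of -0.24, -0.24 and 0.01 and a mean of -0.15 ± 0.15 (SD, n = 3). Its groups overlapped, at levels of 7.68 to 8.04 against 7.66 to 8.27.

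The probes of TLR4, the receptor for lipopolysaccharide, went opposite ways. On A_70_P049612 the log2 ratios were 0.39, 0.36 and 0.18, with a mean of 0.31 ± 0.11 (SD, n = 3). On A_70_P049611 they were -0.10, -0.17 and -0.25, with a mean of -0.17 ± 0.07. Each probe kept its own sign on every array and under each setting tried, so that the gene has no single direction here, and the mean of both, 0.07, hides this. The probes were designed on different sheep records, and the limma adjusted p was 0.228 and 0.396.

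TLR10 varied most between the pairs. On A_70_P049642 the log2 ratio was 1.05 on array 1, -0.85 on array 2 and -1.61 on array 3, and on A_70_P049641 it was 0.86, -0.61 and -1.40. The goats of the short photoperiod lay close together on A_70_P049642, at log2 levels of 8.287, 7.732 and 8.002, and the spread came from the goats of the natural photoperiod, at 7.235, 8.581 and 9.616. The level of 7.235, on array 1, came from a weak signal of 3.36 times the background. On A_70_P049641 the signal of this goat was 5.95 times the background. The means of -0.47 and -0.38 had SDs of 1.37 and 1.15 (n = 3), and without replicate 3 they were 0.10 and 0.12.

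**Figure D4:**
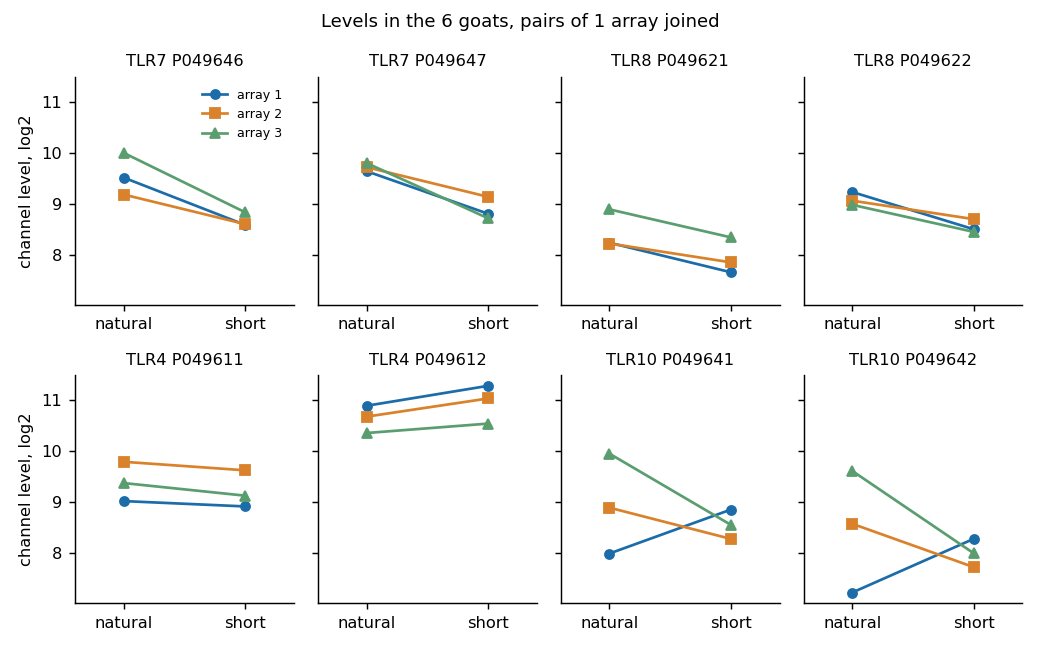
Log2 channel level of the probes of TLR7, TLR8, TLR4 and TLR10 in the 6 goats, with the goats of 1 array joined by a line. All lines of TLR7 and TLR8 slope down from the natural to the short photoperiod, the lines of the TLR4 probes slope in opposite directions, and for TLR10 array 1 crosses the others. Levels can be compared within a panel and not between panels.

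The receptors were then compared by place, with 1 value per gene from the mean of its well measured probes. The 3 measured endosomal genes had a median log2 ratio of -0.52, from -0.86 for TLR7 through -0.52 for TLR8 to -0.28 for TLR3. The 6 surface genes had a median of -0.18, from -0.43 for TLR10 to 0.47 for TLR1. The ranges overlapped, because TLR10 was below TLR3. The difference between these medians of gene means was -0.34. With medians taken within arrays 1, 2 and 3 it was -0.53, -0.34 and -0.40 (SD 0.10, n = 3), so that endosomal receptors had the lower median on each array. The SD describes the array values, of which -0.34 is not the mean. Without TLR7 the difference was -0.22, with -0.41, -0.12 and -0.39 on the arrays (SD 0.16 of the array values). This is a description without a test, because 3 genes stand against 6 and the same goats gave both values.

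Of the genes that work with the receptors, 107 were listed in 7 groups, and 36 of them were named on the array, with 62 probes. No probe of these lists passed the limma threshold, with a lowest adjusted p of 0.155, and none of the 56 probes well above background was changed 2-fold. Without adjustment 23 of the 56 had a p under 0.05, where 18.5% of all tested probes did. Their median log2 ratio was -0.24, 43 means were below 0 and 13 above, and 21 probes were below 0 and 7 above 0 on all 3 arrays, again beside 22% and 21.6% of all probes.

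Upstream of the signal, the co-receptor CD14, which hands lipopolysaccharide to TLR4, had mean log2 ratios of -0.37 ± 0.14 and -0.33 ± 0.14 (SD, n = 3) and was below 0 on all 3 arrays on both probes. The co-receptor LY96 was matched to no probe by name. The adaptors and kinases had a median of 0.13 over 7 probes, which was 0.06 without replicate 2, 0.30 without replicate 3 and 0.02 with median centring. MYD88, the adaptor that most of the receptors share, had log2 ratios of 0.60, 0.20 and 0.47 and a mean of 0.42 ± 0.20 (SD, n = 3; limma adjusted p = 0.201). The lowest of this group was a probe of IKBKB, a kinase that releases NF-kB, at -0.09, and its other probe was at 0.04.

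Among the transcription factors, with a median of -0.07 over 8 well measured probes, a probe of JUN had the highest mean, 0.20 ± 0.26, and one of FOS the lowest, -0.74 ± 0.59 (SD, n = 3). The median was -0.01 without replicate 3 and -0.31 with median centring. A second JUN probe, left with 2 arrays after outlier spots were removed, had the opposite sign, at -0.55 and -0.30 on arrays 2 and 3, so JUN has no single direction here. The lowest of the inhibitors was PPARG, a nuclear receptor, at -0.41 ± 0.23, and the highest NFKBIB, which holds NF-kB in the cytoplasm, at -0.03 ± 0.13. Neither group held a probe with an adjusted p under 0.222 in limma.

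The cytokines and other products had a median of -0.34 over 27 probes, of which 12 were below 0 and 2 above 0 on all 3 arrays. The median was -0.51 without replicate 1 and -0.13 without replicate 3. CXCL10, a chemokine induced by interferon, had the lowest mean, -0.87 ± 0.70 (SD, n = 3), and IL6 the highest, 0.25 ± 0.70. Several inflammatory cytokines varied between the pairs in the order seen for TLR10. IL1B had log2 ratios of 0.46, -0.39 and -0.75. TNF had 0.48, -0.41 and -0.73 on the probe A_70_P030271. CXCL8, a chemokine for neutrophils, had 0.85, 0.05 and -1.17 on the probe A_70_P039662 and 0.35, -0.15 and -1.58 on the other. As for TLR10, array 1 was the highest and array 3 the lowest in each of them. The same order held for probes of other lists, such as those of NOD2 and cathepsin D, and its share over all probes was not counted. IL6 ran the opposite way at -0.37, 0.11 and 1.01, on weak mean signals of 4.79 times the background in the short and 4.90 times in the natural photoperiod.

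Other receptors of microbial patterns had a median of -0.78 over 5 probes, all with a mean below 0. The lowest was CLEC4E, which recognises a mycobacterial glycolipid, at -0.96 ± 0.80 (SD, n = 3), with -1.67 on array 1 and -0.10 on array 3. The highest was NOD2, a cytoplasmic sensor of bacterial cell wall, at -0.24 ± 0.49. CLEC7A, the receptor for beta-glucan, gave the median of this group, at -0.59, -0.72 and -1.04. Of the endosomal proteases, which cut endosomal receptors into their active form, cathepsin S (CTSS) was the lowest at -0.97 ± 0.52, and a probe of cathepsin D (CTSD) the highest at -0.04 ± 0.28.

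**Figure D5:**
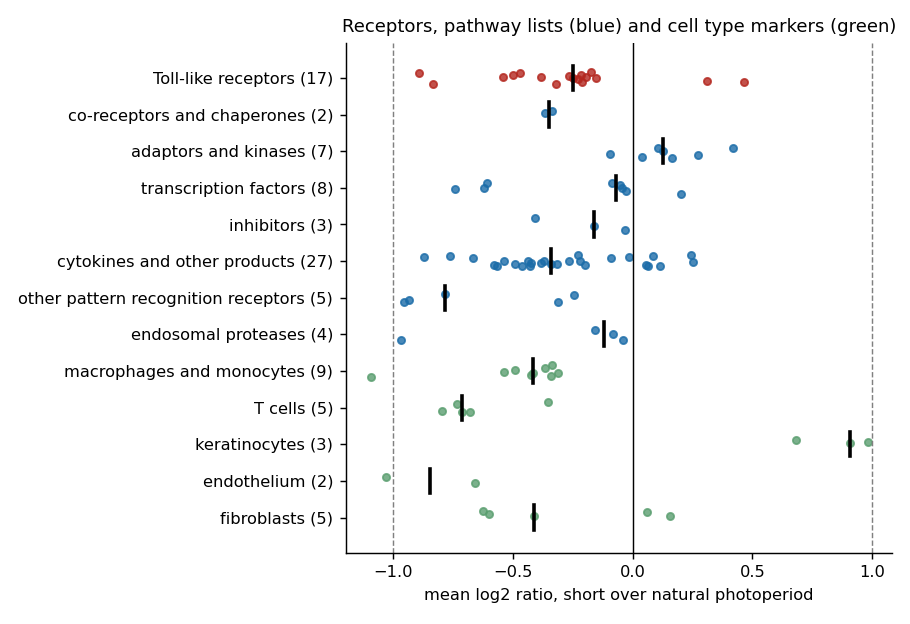
Mean log2 ratio of each probe well above background for the receptors (red), the pathway lists (blue) and the cell type markers (green), with the number of probes in brackets and a black line at the median. Adaptors and kinases and the keratinocyte markers have medians above 0. The receptors and every other list have medians below 0, the lowest of them the endothelium list, which held SELE alone, at -0.84.

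Markers of macrophages and T cells also had ratios below 0 in these samples of whole skin. Fewer cells of a type, less RNA per cell and a larger share of RNA from other cells cannot be told apart in them. No marker probe of any list passed the limma threshold, and the lowest adjusted p was 0.173 for macrophages and monocytes and 0.155 for T cells. Of 10 listed macrophage and monocyte markers 5 were named on the array, and 9 of 9 probes were below 0 on all 3 arrays, where 22% of all probes were. Probes of the same gene are not independent here either, and those of CD86 are also counted among the cytokines and other products. The median of these 9 probes was -0.41. The probe of FCGR1A, a receptor for immunoglobulin G, was past the 2-fold rule, at -1.09 ± 0.76 (SD, n = 3), with -1.57, -0.22 and -1.49 on the arrays. Like TLR7, FCGR1A is among the genes that the study picked on these arrays, so its difference is not independent evidence. The summed level of the 9 probes on the linear scale was 98551 to 115103 in the short photoperiod and 127424 to 175409 in the natural photoperiod. How often such sums lie apart over all probes was not counted. Of 6 T cell markers 3 were well measured, 5 of 5 probes were below 0 on all 3 arrays, and their summed level was 36345 to 46913 against 58534 to 67055. CD4 was not well above background on all arrays. No marker of leukocytes in general, B cells, plasmacytoid dendritic cells or neutrophils was matched by name. The part of these cells in the receptor values was not tested.

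The keratinocyte markers had ratios above 0. The 3 well measured probes, for KRT14 and TP63, were above 0 on all 3 arrays, with a median of 0.91 that was 1.32, 1.12 and 0.26 on arrays 1, 2 and 3. Their limma adjusted p was 0.163 to 0.227. TP63 is also among the genes that the study picked on these arrays, so its part in this median is not independent evidence. The summed level of the 3 probes was 72749 to 90138 in the short photoperiod and 37993 to 65084 in the natural photoperiod. KRT14 weighed most in this sum, since the TP63 probes lay at means of only 17.6 and 22.7 times the background in the short photoperiod. The probe of KRT5 was left with 1 array after outlier spots were removed. Of 5 listed endothelial markers only SELE was matched, and it too is among the genes that the study picked on these arrays. Its probes were at -0.66 and -1.03, and 1 gene does not stand for the endothelium as a whole. The summed level of the SELE probes was also lower in the short photoperiod, at 3528 to 5233 against 7833 to 9810. How often sums such as those of the keratinocyte and SELE probes lie apart over all probes was not counted. The fibroblast probes had a median of -0.41, with COL3A1 below 0 on all 3 arrays and DCN not. Their summed levels overlapped, at 131815 to 139912 in the short photoperiod against 107492 to 158697. The label of the tissue as skin was checked on these probes, of which KRT14 lay at a mean of 3181 times the background in the short and 1234 times in the natural photoperiod.

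The probes with a gene name whose ratios lay nearest to those of TLR7 were searched among all well measured probes, by the root mean square difference over the 3 arrays. Nearest were both probes of LOC100137068, a locus with a placeholder symbol only, at differences of 0.05 and 0.06. Then followed a probe of CD3E, a part of the T cell receptor complex, at 0.16, a probe of PTGS2, the inducible cyclooxygenase, at 0.17, and a probe of CTLA-4, an inhibitory receptor of T cells, at 0.18. Their mean log2 ratios were -0.84, -0.83, -0.71, -0.76 and -0.69. With 3 arrays such likeness is a description.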

How the data were processed

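Skin RNA of 6 goats was hybridised in pairs to 3 arrays. The deposited scanner files hold spot and background intensity values that the authors obtained with Feature Extraction 10.7.3.1, not normalized, and its log10 ratio after lowess. The deposited value table gives log2 ratios, Cy5 to Cy3, with surrogates in place of signals that were not above background.

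For the ratios used here, limma 3.58.1 in R 4.3.3 was run on the spot intensities: normexp correction, offset 50, on all spots, controls left out, loess within arrays, spots with an outlier flag left out, spots of 1 probe averaged. Each probe with at least 2 arrays was tested against 0 with lmFit and eBayes, which is a paired test since each array is a pair, and p was adjusted over 14977 probes by Benjamini-Hochberg, with 0.05 as the threshold. The fold rule, 2 or 0.5, is that of the methods. Levels per goat are the dye channels after quantile scaling of their mean intensity. The precision is limited by the number of arrays. The p-values rest on the spread between these 3 pairs, which eBayes draws for each probe towards the spread common to all probes. Slide and scan were not fitted as a block. The test was checked only on simulated ratios that followed its own model, with changes of 2 log2 units. No receptor mean was as large, so the check does not cover changes of their size. Plots were drawn with matplotlib 3.10.9.

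Genes were matched by the arrays' names, which can be old. Named are every receptor probe, in each pathway list the lowest and highest well measured probe and any past a threshold, MYD88, CD14, LY96, TNF, IL1B, IL6 and CXCL8, and the 5 named probes nearest to TLR7; CLEC7A, the second JUN probe and a few markers are named in addition, chosen after their values were seen. The members and lists were chosen with earlier results of these data known. Alternatives were other background corrections, median centring, the log ratio of Feature Extraction, the value table, only bright probes, flagged spots kept, each array left out, and other fits.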

Additional observations from a re-analysis of the deposited data

How the results depend on the processing

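The directions of the receptor median, of TLR7 and of the difference by place were kept under all alternatives run; the counts were not. With median centring, limma called 7 receptor probes (TLR7, TLR8 and TLR9 with both probes, and TLR5) and 7 pathway probes among 1880 of the array, 2 receptor probes were past 2-fold, TLR7 was at -1.04 (adjusted p = 0.0344), the receptor median at -0.39 and the difference by place at -0.44. The all-probe median moved from 0.00 to 0.04. Fitting the dye channels separately, with their correlation within spots, called 2 receptor probes, both of TLR7 (-0.86, adjusted p = 0.0375 and 0.0463), among 164. The unpaired fit of the channels, with no replicate block, called 0, with an adjusted p of 0.405 and 0.461 for TLR7. The 2-fold count of receptors was 1 with the log ratio of Feature Extraction and 2 with the value table, where the second is a TLR9 probe at 1.06 from surrogate values and the first gives 0 for that probe; the difference by place was -0.47 in both. It was -0.22 without TLR7 and, chosen after seeing the data, -0.37 without TLR10. Leaving out 1 array gave 0 to 2 receptor probes past 2-fold (both TLR10 probes without replicate 1, at -1.004 and -1.23, 1 TLR7 probe without replicate 2), a difference by place of -0.48 to -0.35, and no called receptor. Without replicate 3 the TLR10 probes turned to 0.12 and 0.10. The array's 126 probes past 2-fold were 198 without the offset, 370 with median centring, 268 in the log ratio, 474 in the value table, 286 without replicate 1 and 208 without replicate 2. Its 1 call was 14 in the value table and 0 in the log ratio, the unpaired fit and each fit without 1 array. The cause of these shifts was not tested. For the 15 other well measured receptor probes, TLR9 left aside, 190 of 195 alternative values kept direction and side of the threshold. This count overstates how much was varied. The filter for bright probes, the eBayes fit with trend and the fits of the dye channels leave the mean unchanged, so direction could not turn there. For these probes the value table also holds nearly the same values as the log ratio of Feature Extraction. The TLR9 probes had adjusted p of 0.0467 and 0.0349 with median centring.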
